A study of Homo sapiens with 3 samples.

Results

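The miR-199 and miR-214 microRNAs (miRNAs) form a small group known from fibroblasts and other mesenchymal cells. It was taken here as 5 listed entries, hsa-miR-199a-5p, hsa-miR-199a-3p, hsa-miR-199b-5p, hsa-miR-199b-3p and hsa-miR-214-3p, out of 2588 mature miRNAs. The entries were taken by name, and no measured value enters the rule. Earlier results of these data were, however, known when they were chosen. The cells were SK-MEL-2, a human melanoma cell line. The libraries were 1 of untreated cells (control), 1 of cells exposed to a plasma jet for 3 min and 1 of cells exposed for 5 min. A nonthermal plasma jet is a stream of partly ionised gas that delivers reactive oxygen and nitrogen species, and the series asked how it acts on melanoma cell growth. All RNA was taken on Day 2, after growth in serum-containing RPMI-1640.

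A miRNA hairpin yields a 5p and a 3p strand, called arms. A mature miRNA finds its targets mainly through its seed, bases 2 to 8. MIR199A2 and MIR214 lie on 1 long non-coding transcript, DNM3OS, which runs opposite to the dynamin gene DNM3 and, in the mouse, is switched on by the transcription factor TWIST1. MIR199A1 and MIR199B lie opposite to other dynamin genes. Known targets of miR-199a-3p include the kinases MET and MTOR. miR-199a-5p represses HIF1A and CAV1, and miR-214-3p represses TFAP2C. In melanoma both arms of miR-199a have been described as promoting metastasis through repression of APOE.

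The mature sequences are shown because they decide which entries a read can be assigned to and which members share a seed. The seed is in capitals, and RefSeq on GRCh38.p14 gave 4 of the 5 members. hsa-miR-199b-5p is named only.
hsa-miR-199a-3p: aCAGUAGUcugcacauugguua
hsa-miR-199b-3p: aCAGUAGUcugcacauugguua
hsa-miR-199a-5p: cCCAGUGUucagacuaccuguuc
hsa-miR-214-3p: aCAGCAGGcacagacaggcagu

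The 3p entries of miR-199a and miR-199b were the same over 22 of 22 bases, so no read of the full mature sequence can tell them apart. miR-214-3p matched them at 8 of 22 positions without gaps and had a seed of its own. The miR-199 hairpins are shown with the common 3p arm in capitals.
MIR199A1: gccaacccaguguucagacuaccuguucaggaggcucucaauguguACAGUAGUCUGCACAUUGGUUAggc
MIR199A2: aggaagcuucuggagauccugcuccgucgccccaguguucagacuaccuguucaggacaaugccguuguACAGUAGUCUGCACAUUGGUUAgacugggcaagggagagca
MIR199B: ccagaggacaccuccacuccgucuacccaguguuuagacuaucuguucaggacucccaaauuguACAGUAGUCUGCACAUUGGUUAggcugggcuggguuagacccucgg

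MIR199A1 lies on chromosome 19, 10817426 to 10817496, antisense to an intron of DNM2. MIR199A2 lies on chromosome 1, 172144535 to 172144644, in an intron of DNM3OS and antisense to an intron of DNM3. MIR199B lies on chromosome 9, 128244721 to 128244830, antisense to an intron of DNM1. MIR214 lies on chromosome 1, 172138798 to 172138907, in an exon of DNM3OS, with 5627 bases between it and MIR199A2. All are on the minus strand of GRCh38, with gene models of GENCODE release 29. The sequence of miR-199a-5p occurred in 2 hairpins, MIR199A1 and MIR199A2, whereas that of miR-199a-3p occurred in 3.

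Total counts were 1045482 in the control library, 966943 in that of 3 min plasma and 615645 in that of 5 min plasma. Levels below are in CPM, counts scaled to a library of 1000000 after adjusting the library totals by the TMM method. A single count was worth 0.956, 1.04 and 1.61 CPM in that order. With 1 library per group there is no replicate and no test. Each ratio compares libraries, and the exact 95% intervals cover counting error only. Ratios were limited to 231 miRNAs whose counts averaged 20 or more over the libraries, and 4 of the 5 members were among them. As a check of the cell line, miR-211-5p, which lies in an intron of the melanocyte gene TRPM1, stood at 122 CPM in the control, 101 CPM after 3 min and 105 CPM after 5 min. Its relative miR-204-5p had 2493, 2645 and 2025 CPM, and miR-146a-5p, the remaining measured entry of the melanocytic list, 1261, 1504 and 1835 CPM. The 5 entries examined of the miR-506 to miR-514 cluster, another melanocytic marker, were at 0 in all 3 libraries.

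The 3p arms were the abundant part of the group. miR-199a-3p had 3918 CPM in control cells (interval 3799–4040), 4934 after 3 min (4794–5076) and 5464 after 5 min (5282–5651). These values came from 4098, 4729 and 3392 counts. It was the 29th, 27th and 24th most abundant entry of those libraries. miR-199b-3p had 1982 CPM (1897–2069), 2403 CPM (2306–2503) and 2663 CPM (2536–2794) in the same order, from 2073, 2303 and 1653 counts. For both entries the control was lowest and the 5 min library highest. Under another scaling, described below, both entries were at only 1.01-fold for 5 min over 3 min. Because the sequence is the same, they are 1 measurement rather than independent ones. Together they took 0.590% of control counts (0.576–0.605), 0.727% after 3 min (0.710–0.744) and 0.819% after 5 min (0.797–0.842). In bulk RNA, more cells that carry a miRNA and more of it per cell cannot be told apart.

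The 5p arms were far scarcer. miR-199a-5p had 113 CPM in control cells (93.4–135), 120 after 3 min (99.1–144) and 176 after 5 min (144–212), from 118, 115 and 109 counts. miR-199b-5p had 58.3 CPM (44.6–74.9), 63.6 CPM (48.7–81.7) and 95.04 CPM (72.4–123) in the same order, from 61, 61 and 59 counts. The control and 3 min values of both overlapped widely, and the 5 min value was the highest. The raw counts were nearly equal across libraries, so the higher 5 min level rests on the smaller total of that library.

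miR-214-3p was almost undetected. It had 1 count in control cells, 1 after 3 min and 0 after 5 min. Taking 3 counts as the limit that a count of 0 allows, the 5 min level was at most 4.83 CPM, and the two-sided exact interval drawn in the plot of levels reaches 5.94 CPM. No ratio was taken, since every library was at or under that floor. miR-199a-3p, one source of which shares DNM3OS with miR-214-3p, had 12219 counts over the 3 libraries, against 2 for miR-214-3p. In order of level, miR-199a-3p stood highest, followed by miR-199b-3p, miR-199a-5p, miR-199b-5p and miR-214-3p in every library. Adapter ligation favours some RNA ends, so differences between entries within a library are not molar.

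**Figure D1:**
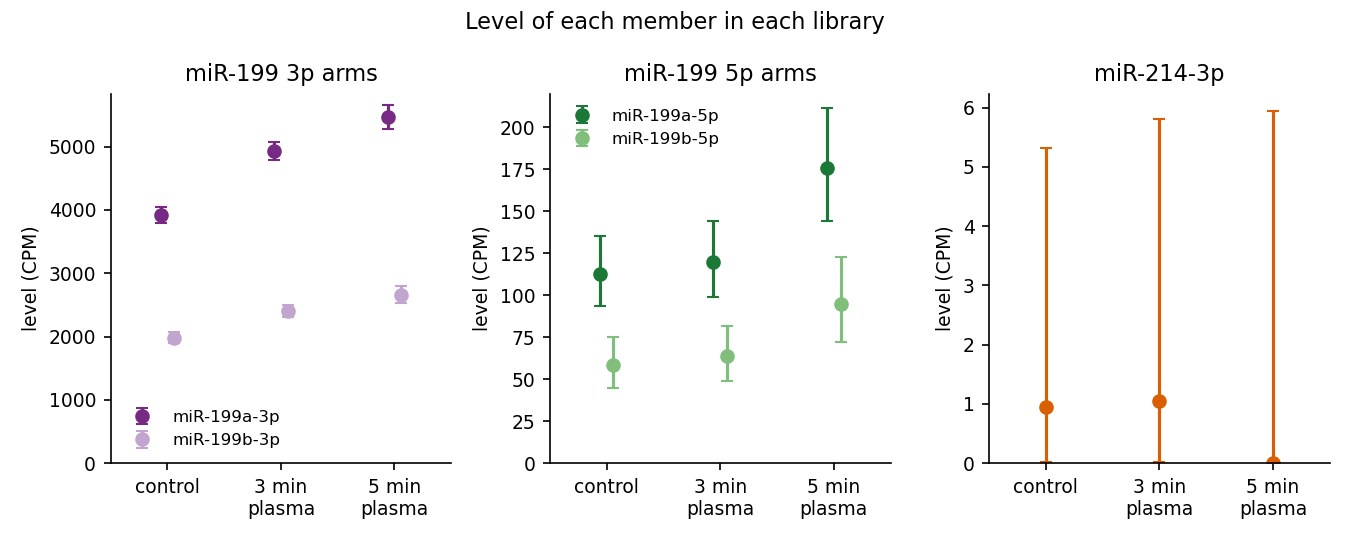
Level of each member in CPM (vertical axes, linear and differing between panels) in the control library and those of the 3 min and 5 min exposures; points are single libraries and bars exact 95% counting intervals. The 3p arms lie far above the others and are lowest in the control, the 5p arms are highest after 5 min, and miR-214-3p has at most 1 count.

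After 5 min of plasma against control, all 4 measured members stood higher. miR-199b-5p was at 1.63-fold (1.12–2.37), on 95.04 CPM against 58.3 CPM in the control. miR-199a-5p was at 1.56-fold (1.19–2.04), on 176 CPM against 113 CPM in the control. miR-199a-3p was at 1.39-fold (1.33–1.46), and miR-199b-3p at 1.34-fold (1.26–1.43). The 2 entries of the 5p arm reached 1.5-fold and none reached 2-fold. Among all 231 measured miRNAs, 17.3% had a ratio of 1.5 or more and 9.52% a ratio of 2 or more. The counting interval lay above 1 for 4 of 4 measured members, against 29.0% of all measured miRNAs. It lay below 1 for 26.0% of them, so an interval that leaves out 1 was common in both directions. Of the 58 miRNAs that averaged 1000 counts or more, the interval lay above 1 for 20 and below 1 for 32. In the counts of members, miR-199a-3p and miR-199b-3p are 1 measurement, because their sequence is the same.

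The scaling moved these values. DESeq2 size factors over all listed miRNAs shifted the median log2 ratio of the 231 miRNAs by -0.21 after 5 min, and no member then reached 1.5-fold. TMM over all listed miRNAs gave 0 members as well. The share of all measured miRNAs at least 1.5-fold higher was then 11.7% under both, and the share lower 18.2% with DESeq2 and 17.3% with TMM, against 17.3% higher and 11.7% lower as reported. Over the reported scaling and its alternatives, 6 in all, the 5 min ratio of miR-199a-3p ran from 1.21 to 1.41, that of miR-199b-3p from 1.16 to 1.35, that of miR-199a-5p from 1.35 to 1.57 and that of miR-199b-5p from 1.41 to 1.64. The interval stayed above 1 in 6 of 6 scalings except for miR-199b-5p, where it did so in 4. The difference between a member's log2 ratio and the median of the 231 miRNAs does not change with the scaling. It was 0.43 for miR-199a-3p, 0.38 for miR-199b-3p, 0.59 for miR-199a-5p and 0.66 for miR-199b-5p. The median log2 ratio of the 4 members was 0.56, beside 0.05 for all 231. Both miR-199a-3p and miR-199b-3p enter that median of members, although they are 1 measurement.

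Counting error is small for the 3p arms, so they were set beside other abundant miRNAs. Of the 58 miRNAs that averaged 1000 counts or more, miR-199a-3p had the 5th highest ratio after 5 min and miR-199b-3p the 7th. Those 58 had a median log2 ratio of -0.11 and an SD of 0.37, beside 0.48 for miR-199a-3p. The entries above miR-199a-3p were miR-29a-3p at 1.62-fold, miR-31-5p at 1.54-fold, miR-221-3p at 1.48-fold and miR-146a-5p at 1.46-fold. Of these, miR-31-5p belongs to the mesenchymal list below, miR-146a-5p to the melanocytic list, and miR-29a-3p and miR-221-3p were picked out once their values were known.

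After 3 min of plasma against control, the 3p arms stood higher and the 5p arms lay near the control. miR-199a-3p was at 1.26-fold (1.21–1.31) and miR-199b-3p at 1.21-fold (1.14–1.29). miR-199a-5p was at 1.06-fold (0.815–1.39) and miR-199b-5p at 1.09-fold (0.753–1.58), with intervals that hold 1. No member reached 1.5-fold, where 6.93% of all measured miRNAs were at least 1.5-fold higher. The interval lay above 1 for 2 of 4 measured members, against 23.4% of all. These were the 3p entries, which are 1 measurement. Of the 58 abundant miRNAs, where counting error is also small, it lay above 1 for 25 and below 1 for 17. Among the 58 abundant miRNAs, miR-199a-3p had the 5th highest 3 min ratio and miR-199b-3p the 8th. Their log2 ratios of 0.33 and 0.28 stood beside a median of 0.02 and an SD of 0.20 for the 58. Both exposures share the control library, so the 3 min and 5 min ratios are not independent of each other.

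**Figure D2:**
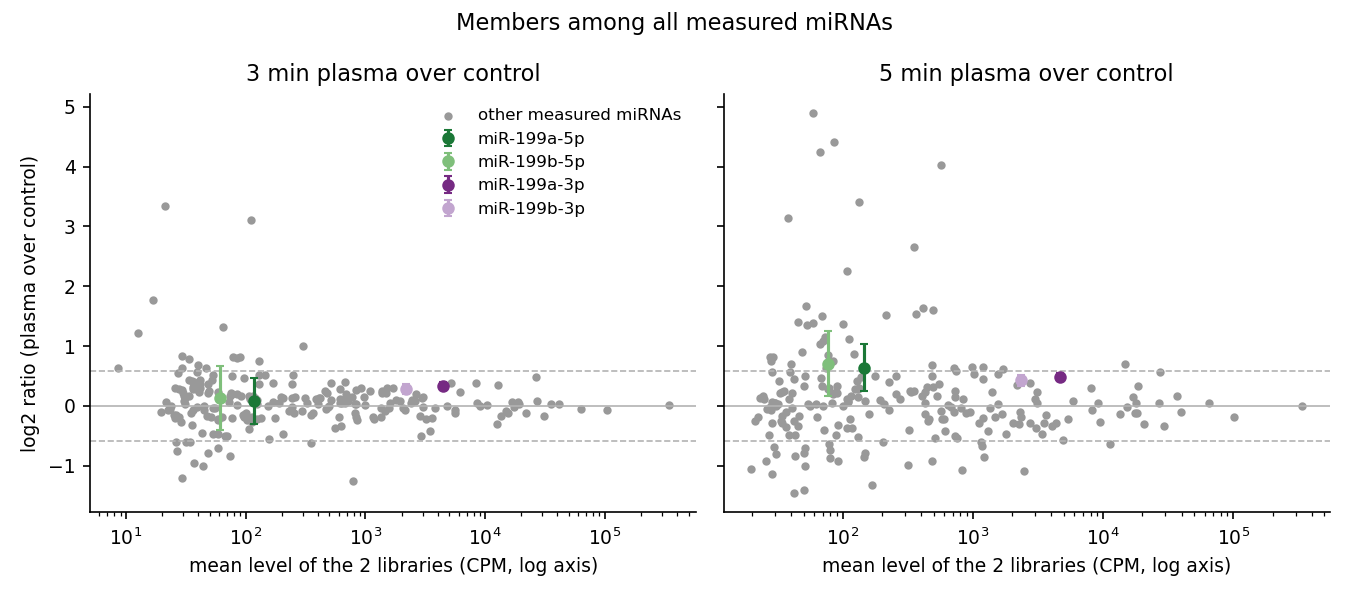
Log2 ratio of plasma over control (vertical axis) against the mean level of the libraries compared (horizontal axis, CPM, log scale) for the 231 measured miRNAs after 3 min and after 5 min; coloured points are the miR-199 entries with exact 95% counting intervals, and dashed lines mark 1.5-fold. The 3p arms lie above most miRNAs of like abundance at both exposures, and the 5p arms lie above the upper dashed line after 5 min only.

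The comparison of 5 min with 3 min of plasma does not use the control in the ratio itself. miR-199b-5p was at 1.49-fold (1.03–2.17) and miR-199a-5p at 1.46-fold (1.12–1.92). miR-199a-3p and miR-199b-3p were both at 1.11-fold (1.06–1.16 and 1.04–1.18). No member reached 1.5-fold, where 13.0% of all measured miRNAs did so on the higher side. The interval lay above 1 for 4 of 4 members, against 25.1% of all. Of the 58 abundant miRNAs it lay above 1 for 16 and below 1 for 34. Under DESeq2 size factors both 3p entries were at 1.01-fold. The intervals of both 3p entries and of miR-199b-5p then held 1, as they did with TMM over all listed miRNAs, and that of miR-199a-5p stayed above 1 in 6 of 6 scalings. All 4 measured members had the order control, 3 min, 5 min from low to high. So did 79 of the 231 measured miRNAs (34.2%) and 14 of the 58 abundant ones (24.1%). In this count of members and in that of intervals, the 3p entries are 1 measurement.

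Arm use needs no scaling, because both arms are counted in the same library. In the control the 3p arms made up 97.2% of all miR-199 counts (96.7–97.6), 97.6% after 3 min (97.2–97.9) and 96.8% after 5 min (96.3–97.2). There were 34.5 counts of 3p per count of 5p in control cells, 40.0 after 3 min and 30.0 after 5 min. The odds of 3p were 0.752 times as high after 5 min as after 3 min (exact 95% interval 0.603–0.937). Against control the odds ratio was 0.871 after 5 min (0.699–1.09) and 1.16 after 3 min (0.933–1.44), both with intervals that hold 1. The miR-199a arms alone gave 0.757 for 5 min over 3 min (0.575–0.997), and the miR-199b arms alone 0.742 (0.507–1.09). The odds ratios were chosen after the shares had been seen.

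The counts were divided between the paralogs in nearly the same way in every library. In the control miR-199b-3p held 33.6% of miR-199-3p counts (32.4–34.8), 32.8% after 3 min (31.7–33.9) and 32.8% after 5 min (31.5–34.1). In the control miR-199b-5p held 34.1% of miR-199-5p counts (27.2–41.5), 34.7% after 3 min (27.7–42.2) and 35.1% after 5 min (27.9–42.8). All 6 intervals hold 33.3%, the share of MIR199B among the 3 miR-199 hairpins. How reads that match several hairpins were assigned is not given in the sources used here. The separate levels of miR-199a-3p and miR-199b-3p are therefore uncertain. MIR199B does not hold the sequence of miR-199a-5p, so full reads of that entry can be told apart, but whether mismatches were allowed is not given either. The sums over both are the firmer values. Summed over paralogs, miR-199-3p was at 1.38-fold after 5 min (1.33–1.43) and 1.24-fold after 3 min (1.20–1.29). Summed miR-199-5p was at 1.58-fold after 5 min (1.27–1.96) and 1.07-fold after 3 min (0.866–1.33).

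**Figure D3:**
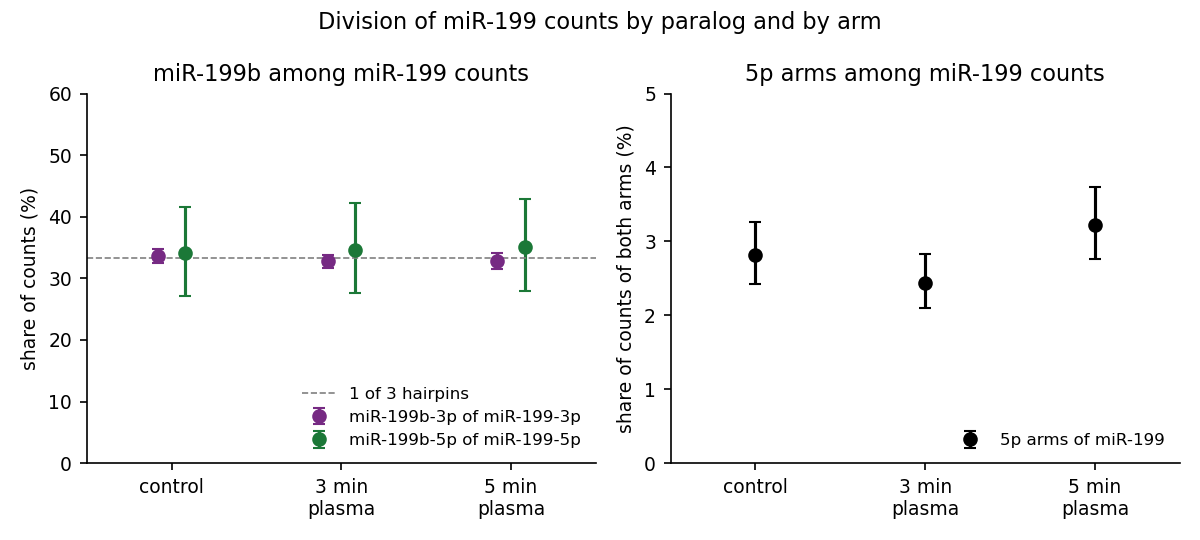
Left, share of miR-199b among the counts of the 3p and of the 5p entries (percent), with a dashed line at the share of 1 of 3 hairpins; right, share of the 5p arms among all miR-199 counts (percent), in each library with exact 95% binomial intervals. The intervals of the paralog shares hold the dashed line in every library, and the 5p share runs from 2.44% after 3 min to 3.22% after 5 min.

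Relatives and neighbours of the members carried few counts. miR-3129-5p, which has the seed of miR-199-3p, was counted 9 times in the control, 4 times after 3 min and 7 times after 5 min. The entries with the seed of miR-214-3p, miR-761 and miR-3619-5p, had 0 in each library. miR-214-5p, the other arm of MIR214, also had 0. MIR3120 overlaps MIR214 on the opposite strand, so that its reads and those of miR-214 can be mixed where strand is not used. miR-3120-5p had 1 count in the control and miR-3120-3p 1 count after 3 min, with 0 in the remaining libraries. miR-3154, whose hairpin lies 116 bases from MIR199B on the same strand, had 1, 1 and 5 counts.

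Of 15 other miRNAs known from fibroblasts and mesenchymal tissue, 8 averaged 20 counts or more. After 5 min, 1 of these was at least 1.5-fold higher and 0 lower, and after 3 min 0 were higher and 1 lower. Among all measured miRNAs, 17.3% were at least 1.5-fold higher after 5 min and 6.93% after 3 min. At least 1.5-fold lower were 11.7% after 5 min and 5.19% after 3 min. The median log2 ratio of the 8 was 0.03 after 5 min and 0.19 after 3 min, beside 0.05 and 0.05 for all 231. miR-31-5p, whose gene lies near CDKN2A, was at 1.54-fold after 5 min (1.43–1.66), with 2076 CPM against 1347 CPM in the control. miR-152-3p, a repressor of the DNA methyltransferase DNMT1, was at 1.25-fold (1.07–1.45). The lower limit of its log2 ratio was 0.10. DESeq2 size factors shift log2 ratios by -0.21 after 5 min, so its interval then holds 1. With the same shift miR-31-5p, at a reported log2 ratio of 0.62, falls under 1.5-fold, and its interval stays above 1. On the lower side, miR-100-5p, a repressor of MTOR, was at 0.855-fold (0.818–0.893). miR-450a-5p of the X-linked miR-424 cluster was at 0.914-fold (0.845–0.988).

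**Figure D4:**
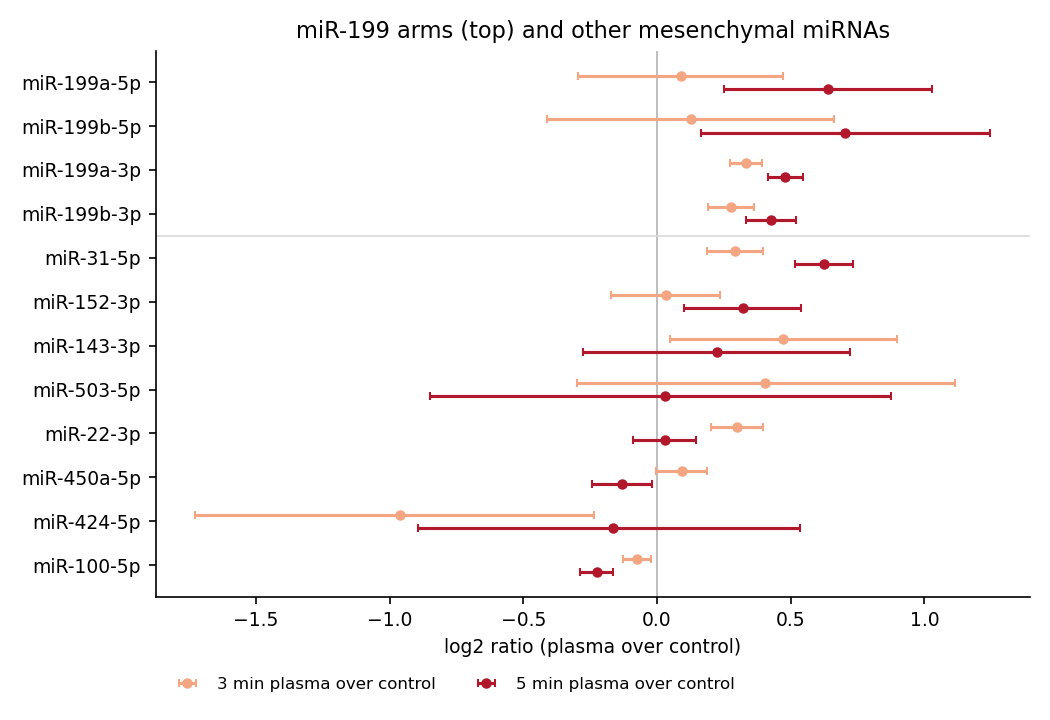
Log2 ratio of plasma over control (horizontal axis) for the miR-199 arms, above the line, and the 8 measured miRNAs of the mesenchymal list, below it; points are ratios of single libraries after 3 min and 5 min and bars exact 95% counting intervals. After 5 min all 4 miR-199 entries lie above 0 with their intervals, and miR-100-5p and miR-450a-5p lie below it.

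Markers of other cells were set beside the group. Of the fibroblast markers outside the miR-199 group, miR-143-3p stood at 81.3 CPM in the control, 113 CPM after 3 min and 95.04 CPM after 5 min, and miR-145-5p of the same cluster had 1, 2 and 0 counts. Summed epithelial markers had 14.3, 25.04 and 64.4 CPM (15, 24 and 40 counts) over the 6 of 7 that were listed under the name used, of which miR-205-5p was at 0 throughout. Summed blood markers had 16.3, 21.9 and 22.6 CPM (17, 21 and 14 counts). Endothelial markers had 313, 341 and 375 CPM, and muscle markers 14.3, 17.7 and 45.1 CPM (15, 17 and 28 counts). Of the muscle markers, miR-1-3p had 0, 3 and 15 counts, miR-499a-5p 14, 14 and 13, and miR-133a-3p 1, 0 and 0. miR-223-3p of the blood list and miR-133b and miR-206 of the muscle list were at 0 throughout. The part of other cell types in the miR-199 ratios was not tested.

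The 5 miRNAs whose pair of log2 ratios to control lay nearest to that of miR-199a-3p, by Euclidean distance over the 3 libraries, were miR-320a, miR-708-3p, miR-339-5p, miR-101-3p and miR-374b-5p. Their log2 ratios after 3 min were 0.37, 0.37, 0.38, 0.30 and 0.25, beside 0.33 for miR-199a-3p. After 5 min they were 0.49, 0.50, 0.50, 0.53 and 0.45, beside 0.48. Within 0.1 of miR-199a-3p at both exposures lay 6 of the 227 measured miRNAs that are no members. With distances weighted by counting error, 3 of these 5 remained among the nearest. The distance to miR-199b-5p was 0.31 and to miR-199a-5p 0.29, both farther than the 5 named.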

How the data were processed

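Small RNA from 3 SK-MEL-2 libraries, 1 per group, was measured with a NEBNext small-RNA kit after Trizol extraction, per the labels' protocols. The authors deposited raw read counts, 1 whole number per mature miRNA. Per the submitters' processing notes, the authors used Bowtie2, bedtools and edgeR, with no version or role named. The genome build, miRNA annotation, trimming, strand use and treatment of reads matching several hairpins are not stated there or in the file headers. Without molecular identifiers, PCR copies count as separate reads.

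Library totals were scaled with TMM (edgeR 4.0.16, R 4.3.3) over miRNAs averaging 20 counts or more. Ratios carry exact (Clopper-Pearson) 95% intervals from the binomial split of counts, levels exact Poisson intervals and shares exact binomial intervals. All cover counting error only. Ratios and intervals were checked on simulated counts with counting error only, which cannot check variation between libraries or the scaling. Arm odds ratios used conditional exact intervals (scipy 1.17.1, Python 3.11.15). Mature and hairpin sequences came from RefSeq by name, where 2281 of 2588 listed miRNAs matched. The alternatives were 4 other scalings, 2 other count filters, each miR-199 hairpin type alone and a weighted likeness.

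Named were the members, seed relatives and neighbouring entries with a count, up to 4 of the mesenchymal list whose 5 min interval lay farthest from 1, and the 5 miRNAs most like miR-199a-3p; miRNAs named outside this rule are marked or are listed markers. The members and lists were chosen with earlier results of these data known.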

Additional observations from a re-analysis of the deposited data

How the results depend on the processing

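Ratios and counts of members were recomputed under 4 other scalings and a lower count filter, the background shares also without a filter, and the 3p shares from each hairpin type alone. No called ratio changed sign. With DESeq2 size factors over all listed miRNAs, the log2 ratio of summed miR-199-3p was 0.25 after 5 min over control, 0.24 after 3 min over control and 0.012 for 5 min over 3 min, and that of all miR-199 was 0.26, 0.24 and 0.024. With TMM over all listed miRNAs these were 0.29, 0.26 and 0.035 for miR-199-3p and 0.30, 0.25 and 0.047 for all miR-199. In the reported scaling they were 0.46, 0.31 and 0.15, and 0.47, 0.31 and 0.16. With a filter of a mean of 5 counts, summed miR-199-3p was at 0.40 after 5 min, and all miR-199 at 0.40 after 5 min and 0.26 after 3 min. The members at least 1.5-fold higher after 5 min, 2 as reported, were 0 with DESeq2 size factors, 0 with TMM over all listed miRNAs and 1 with the filter of 5 counts. For 5 min over 3 min they were 0 as reported and 1 with the library total. The cause of these differences was not tested. The other 62 recomputed main values lay within the counting interval or equalled the reported count. They include every 3p share. Full 3p reads cannot be told apart, so the shares of the hairpin types are not independent of each other. Without a filter on low counts, 48.1% of all miRNAs counted were at least 1.5-fold higher after 5 min and 31.7% after 3 min, since single counts then give large ratios. No paired analysis was possible because each group is 1 library. Depth limits miR-214-3p, whose 0 to 1 counts show no direction, and the 5p arms, whose intervals after 3 min hold 1.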

Other observations

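Of the listed entries with a RefSeq sequence, 1 other pair shared an identical mature sequence and a summed mean of at least 20 counts, miR-365a-3p and miR-365b-3p, with 1 hairpin each. It was looked up after the shares of miR-199 had been seen. miR-365a-3p held 54.8% of their counts in the control (exact 95% interval 44.7–64.6), 47.4% after 3 min (37.2–57.8) and 35.2% after 5 min (22.7–49.4). The last interval leaves out 50%, the share of its hairpin, and rests on 54 counts.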
